A study of Mus musculus with 3 samples.

Results

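The 4 tissue inhibitors of metalloproteinases, Timp1, Timp2, Timp3 and Timp4, and the membrane-anchored inhibitor Reck were followed in cultured tendon cells of wild-type mice and of mice with a mutated chloride channel. The 5 genes were taken by gene ID from tables that list 16621 genes in all; each of the 5 was found and each passed the filter on low counts, as did 12888 genes overall. Timp4 passed through DF508 replicate 1 alone. None of the 5 differed between genotypes past the threshold of the test. Timp1, Timp2 and Reck stood within a narrow range over the 3 libraries, Timp3 was lower in both mutant libraries than in the wild-type library without passing the test, and Timp4 was close to the limit of detection.

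The cells, from C57BL/6 mice, are labelled tail tendon derived stem cells, colony-forming progenitors isolated from tendon. They were grown without treatment and collected when confluent at passage 4, from mice 10 weeks of age per the series' text. There was 1 library from wild-type cells (WT) and there were 2 from cells carrying ΔF508 in Cftr (DF508), a mutation of an anion channel of epithelia known from cystic fibrosis; no group carried another allele or agent. Nothing in the labels tells if the DF508 pair stems from different animals or cultures. The p-values therefore concern these samples alone. Their variance combines the scatter of the DF508 pair, which may be technical, with an estimate shared across all genes. As WT is a single library, the fit gives it this same variance.

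Timp proteins are secreted and block the catalytic zinc site of matrix metalloproteinases (Mmp), the enzymes that cut collagens and other matrix proteins; the balance of inhibitor and protease bears on how fast tendon matrix is turned over. Timp1 and Timp2 are soluble. Timp3 binds to the matrix and also inhibits some Adam and Adamts proteases, and Timp4 is known mainly from heart and brain. Reck is anchored to the cell surface, inhibits Mmp2, Mmp9 and Mmp14, and is also a receptor component for Wnt7 ligands.

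The libraries held 5298326 (WT), 5241826 and 5246886 estimated counts (DF508 replicates 1 and 2). Cftr had 15 counts in WT and 1 in each DF508 library (log2 fold change -3.78 ± 1.10 SE, edgeR quasi-likelihood adjusted p = 0.185), and since ΔF508 is an in-frame deletion the transcript level does not check the labels. Of 12 tendon cell markers all 12 were detected, with a summed level of 46532, 47032 and 49276 CPM (counts scaled to library size); the tendon factor Scx had 3.02, 2.1 and 2.48 CPM, Dcn rose (adjusted p = 0.0417) and Cilp fell (adjusted p = 0.0404). Of 12 macrophage and myeloid markers all 12 were detected in every library, with a summed level of 93.6 CPM in WT and of 146 and 671 CPM in DF508 replicates 1 and 2. Of 6 smooth muscle and pericyte markers, which summed to 929, 1612 and 1536 CPM, with Rgs5 at 0 in WT, Acta2 (adjusted p = 0.00178) and Cnn1 (adjusted p = 0.00335) rose. Of the 5 tested, 4 were above WT in both DF508 libraries, and Pdgfrb (477, 442 and 419 CPM) was below. Of 6 endothelial markers, Pecam1, Cdh5, Emcn and Cldn5 were at 0 in every library, and the list summed to 14.7, 13.2 and 12.6 CPM, nearly all of it Tek (14.5, 13.2 and 12.4 CPM). Skeletal muscle, Schwann and neuron markers summed to at most 12.4 CPM a list, and Myod1 and Rbfox3 were at 0 throughout. The part of any other cell type in the results was not tested, and in bulk RNA fewer cells of a type and less RNA per cell cannot be told apart.

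The promoters of Timp1 and Timp3 are shown because these genes behaved least alike among the abundant members. The sequences are from RefSeq (GRCm38.p6) and run from 250 bases before to 50 bases after the annotated start. In Timp1 (chrX:20869916-20870215, plus strand) capitals mark TGAGTAA, a variant AP-1 site, and AGGAAG, an Ets family (PEA3) motif; in Timp3 (chr10:86300162-86300461, plus strand) capitals mark the GC box GGGCGG, found here on the other strand.
Timp1: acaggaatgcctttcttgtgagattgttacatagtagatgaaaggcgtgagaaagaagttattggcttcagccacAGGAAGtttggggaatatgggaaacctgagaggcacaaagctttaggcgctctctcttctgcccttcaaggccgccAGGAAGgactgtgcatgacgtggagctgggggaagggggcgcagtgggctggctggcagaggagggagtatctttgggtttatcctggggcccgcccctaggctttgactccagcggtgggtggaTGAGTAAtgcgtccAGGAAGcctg
Timp3: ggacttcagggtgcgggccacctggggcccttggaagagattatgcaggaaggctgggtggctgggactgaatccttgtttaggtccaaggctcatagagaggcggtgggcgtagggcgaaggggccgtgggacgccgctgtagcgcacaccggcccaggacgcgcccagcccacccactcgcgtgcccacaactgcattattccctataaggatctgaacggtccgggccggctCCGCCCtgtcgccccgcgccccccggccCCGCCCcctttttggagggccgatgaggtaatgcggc

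The closely spaced AP-1 variant and Ets motif of the Timp1 gene are known from the mouse as elements that respond to serum and to AP-1. On the annotated start counted as 1, TGAGTAA covered positions 27 to 33 and the nearest AGGAAG positions 41 to 46, so that they did not overlap. Over both strands of 27025 promoter windows of the same length, 2.7% held TGAGTAA, 35.1% held AGGAAG and 0.858% held both. AGGAAG also occurred once in Timp3, at positions -204 to -199 and not marked there, and once in Timp4. None of the windows of the other members held TGAGTAA, and none of the 5 held the AP-1 consensus TGANTCA (7.93% of all windows), the STAT motif TTCNNNGAA (8.47%) or the TATA box TATAAA (14.2%). The GC box was found in 35.9% of all windows. It occurred 3 times in Reck, 2 times in Timp3, once each in Timp1, where it is not marked (positions -8 to -3), and Timp2, and not in Timp4. The GC content was 55% in Timp1, 68.7% in Timp2, 67% in Timp3, 53.3% in Timp4 and 69.3% in Reck, with a median of 52.7% over all windows. A match of letters is a description and does not show that a factor binds.

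Levels of different genes were compared in FPKM, the deposited value per gene length and library size. The order was the same in every library: Timp2, Timp1, Timp3, Reck and Timp4, from high to low, and no gene's range over the libraries overlapped that of the next. Timp2 and Timp1 were the closest neighbours, with the lowest Timp2 value (507 FPKM) near the highest Timp1 value (487 FPKM). By level Timp2 was gene 112, 98 and 100 of its library in WT and DF508 replicates 1 and 2, Timp1 was gene 133, 124 and 115, and Timp3 was gene 344, 413 and 444. Reck was gene 3432, 3652 and 3256.

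**Figure D1:**
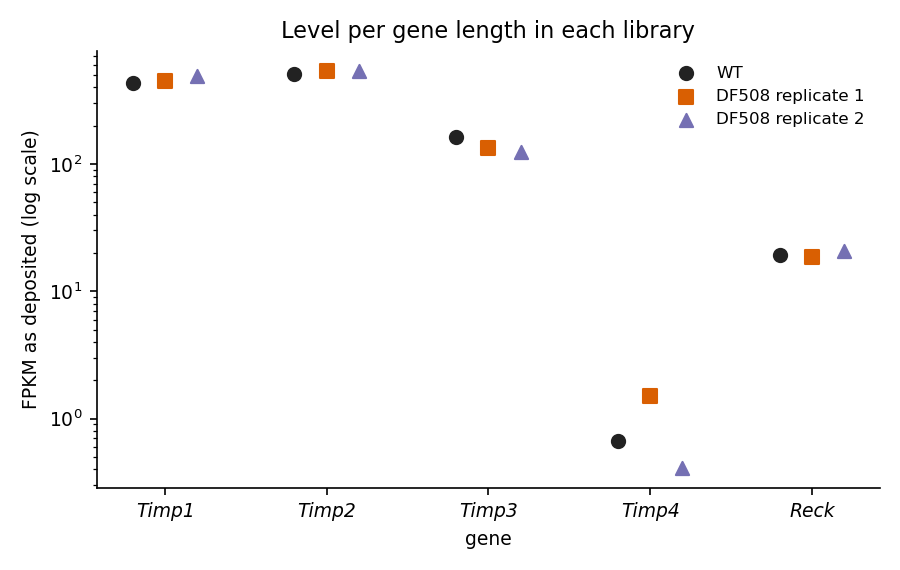
FPKM as deposited (y axis, log scale) of each of the 5 genes (x axis) in the WT library (circle), DF508 replicate 1 (square) and DF508 replicate 2 (triangle); each point is 1 library. Timp2 and Timp1 lie above 400 FPKM, Timp3 lies between 124 and 162 FPKM, and Timp4 spreads from 0.41 to 1.5 FPKM.

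DF508 was set against WT to ask which of these transcripts differed with the Cftr genotype. Over all genes tested, 179 of 12888 passed (1.39%), 116 of them lower (0.9%) and 63 higher (0.489%). Of the 5 members 0 passed, and 1 member, Timp3, had an unadjusted p under 0.05, against 11.9% of all genes. On TMM-normalized libraries both DF508 libraries lay on the same side of WT for 2 of the 5 members, Timp2 above and Timp3 below, and for 72.5% of all genes. DESeq2's Wald test, limma-voom and edgeR's likelihood ratio test also called 0 of the 5, with 63, 189 and 403 genes called in all. DESeq2 gave no adjusted p for 9245 genes, Timp4 among them. Limma on FPKM called 0 genes of any kind, so it could not have called a member. The number of genes called overall depended on the scaling: with library totals in place of TMM factors edgeR's quasi-likelihood test called 0 genes, with 1253 at an unadjusted p under 0.05, so each call given here rests on that choice.

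Timp1, the soluble inhibitor induced in fibroblasts by growth factors and cytokines, had 2015 counts in WT and 2045 and 2249 in DF508 replicates 1 and 2. Scaled to the library total these were 380, 390 and 429 CPM, and per gene length 432, 444 and 487 FPKM. Both DF508 libraries were above WT on these scales, replicate 1 by 2.58% (95% interval -3.59% to 9.15%) and replicate 2 by 12.7% (6.08% to 19.8%). These intervals are exact conditional binomial ones, and like all intervals on single libraries given here they cover counting error only. Replicate 2 was 9.87% above replicate 1 (3.44% to 16.7%), nearly as far as from WT. In the test the log2 fold change was 0.06 ± 0.10 (SE), with a 95% interval of -0.17 to 0.30, or 1.13-fold lower to 1.23-fold higher (adjusted p = 0.881). Without replicate 2 the log2 difference was -0.01. Replicate 2 was also the library with the highest macrophage marker sum (671 CPM), whose part in the Timp1 level was not tested.

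Timp2, which inhibits Mmps and in complex with Mmp14 also takes part in activating pro-Mmp2, was the most abundant member. It had 9801 counts in WT and 10234 and 10338 in DF508, or 1850, 1952 and 1970 CPM and 507, 535 and 540 FPKM. Both DF508 libraries stood above WT, as in 36.3% of all genes on TMM-normalized libraries. On library totals they were above by 5.54% (95% interval 2.65% to 8.52%) and 6.51% (3.6% to 9.51%). They differed from each other by 0.919% (-1.81% to 3.73%). The levels lay closer together on TMM-normalized libraries, at 1891, 1938 and 1951 CPM, so the size of the difference from WT depended on the scaling. On TMM-normalized libraries the log2 fold change was 0.04 ± 0.08 (SE), with a 95% interval of -0.14 to 0.22 (adjusted p = 0.901). A difference beyond 1.1-fold lower or 1.17-fold higher lies outside this interval.

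Timp3, the matrix-bound inhibitor of Mmps, Adam17 and the aggrecanases, had 4033 counts in WT and 3280 and 3054 in DF508. These were 761, 626 and 582 CPM, or 162, 133 and 124 FPKM. Both DF508 libraries were below WT, with differences of -17.8% (95% interval -21.5% to -13.9%) and -23.5% (-27.1% to -19.8%), and replicate 2 differed from replicate 1 by -6.98% (-11.5% to -2.25%). The DF508 mean was 604 ± 30.9 CPM (SD, n = 2). In the test the log2 fold change was -0.38 ± 0.09 (SE), 1.3-fold lower, with a 95% interval of 1.12-fold to 1.51-fold lower. The unadjusted p of 0.0034 stood at place 348 of 12888 genes, the lowest 2.7%, and after Benjamini-Hochberg adjustment p was 0.126 (edgeR quasi-likelihood test). The adjusted p was 0.0705 to 0.707 over the alternatives, and DF508 was lower in each. Of all genes tested, 24.1% had a log2 fold change at least as large, and in 36.2% both DF508 libraries were below WT. In the same libraries the macrophage marker sum was 93.6, 146 and 671 CPM and the smooth muscle and pericyte sum 929, 1612 and 1536 CPM. Within the latter Acta2 had 411, 1072 and 1020 CPM and Pdgfrb 477, 442 and 419 CPM. Myh11 (1.14, 2.68 and 2.3 CPM) and Rgs5 (0, 0.954 and 0.381 CPM) were low in every library. Whether either cell type was present and had a part in the Timp3 level was not tested.

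Timp4, the least abundant member, had 5 counts in WT and 11 and 3 in the DF508 libraries (0.67, 1.5 and 0.41 FPKM). WT lay between the DF508 libraries. The log2 fold change was 0.45 ± 1.12 (SE), with a 95% interval of -2.11 to 3 (adjusted p = 0.924), and it was -0.51 without replicate 1. A change of several fold in either direction was therefore not detectable at this depth.

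Reck, the membrane-anchored inhibitor, had 460 counts in WT and 433 and 486 in DF508, or 86.8, 82.6 and 92.6 CPM and 19.4, 18.4 and 20.7 FPKM. WT again lay between the DF508 libraries, which differed by 12.1% (95% interval -1.69% to 27.9%). The log2 fold change was -0.03 ± 0.12 (SE) and turned to 0.01 with library totals or on FPKM. Its 95% interval was 1.23-fold lower to 1.18-fold higher (adjusted p = 0.953).

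**Figure D2:**
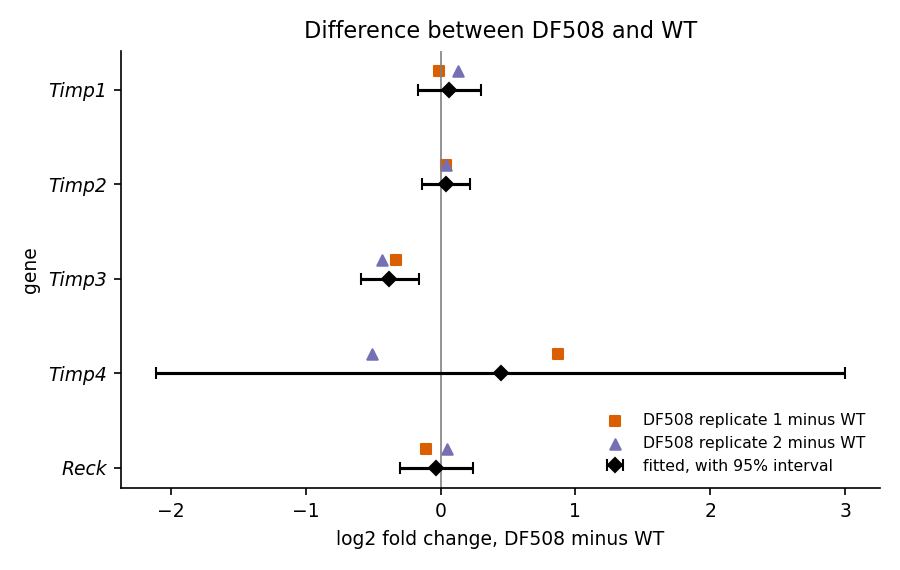
Log2 fold change of DF508 minus WT (x axis) for each gene (y axis): diamonds are the fitted values with 95% intervals from edgeR's quasi-likelihood test, squares and triangles the differences of DF508 replicates 1 and 2 from WT. The Timp3 interval, -0.59 to -0.16, lies below 0 before adjustment, and those of the other 4 genes span 0.

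**Figure D3:**
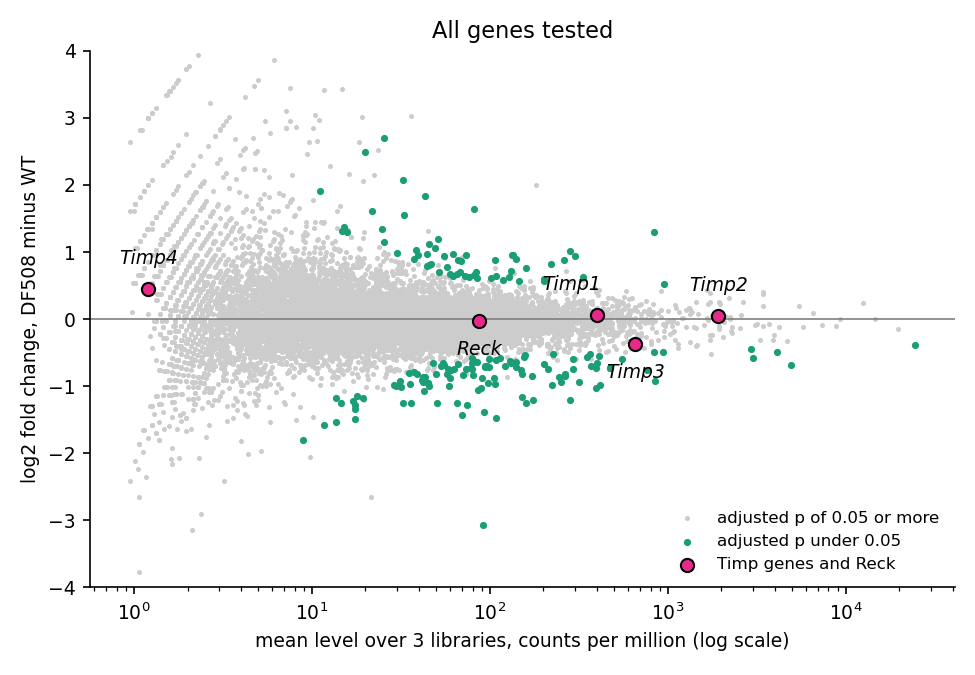
Log2 fold change of DF508 minus WT (y axis) against the mean level over the 3 libraries in CPM (x axis, log scale) for the genes tested; green points passed the threshold, grey ones did not, and the 5 labelled points are Timp genes and Reck. Timp3 lies below 0 beside genes that passed, at -0.38, and genes beyond 4 on the y axis are not drawn.

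The make-up of the Timp transcripts shifted little. Their summed level was 1101 FPKM in WT and 1113 and 1151 FPKM in DF508 replicates 1 and 2. Timp2 made up 46%, 48.1% and 46.9% of the sum, Timp1 39.3%, 39.9% and 42.3%, and Timp3 14.7%, 11.9% and 10.7%. Timp3 was thus the member with a lower share in both DF508 libraries, and its level relative to Timp1 was 0.374 in WT and 0.299 and 0.254 in DF508. Counted in reads, which favour long transcripts, Timp3 made up 25.4%, 21.1% and 19.5% and Timp1 12.7%, 13.1% and 14.4%. The gene length that the quantification assigned to Timp1, which has several transcripts in the tables, was 903.22, 903.12 and 903.42 bases; it is weighted over isoforms and moved by less than 1 base.

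Several members lie within or around other genes. In the GENCODE M21 annotation (GRCm38) Timp1 on chromosome X lies inside Syn1, Timp3 on chromosome 10 inside Syn3 and Timp4 on chromosome 6 inside Syn2, each on the strand opposite to its synapsin gene, a family of synaptic vesicle proteins. Exons of Timp1 share 0 bases with those of Syn1, whereas Timp3 shares 1733 of its 8144 exon bases with Syn3 and Timp4 90 of 5894 with Syn2. Cep295nl lies within Timp2 on chromosome 11, on the same strand and with 0 exon bases in common. The strand setting of the counting is unknown here, so reads from overlapping exons cannot be told apart. The Timp3 estimate was not whole: some of its reads also match another gene or copy, and it is uncertain to that extent. Syn3 had 11.18, 10.20 and 12.26 counts against 4033, 3280 and 3054 for Timp3. Syn1 had 0.52, 0.95 and 0.89 FPKM, Syn2 was listed in DF508 replicate 1 alone, with 3 counts, and Cep295nl had 2.66, 2.02 and 2.59 FPKM. Of these 4 genes, Syn1, Syn3 and Cep295nl were tested and 0 passed, where 1.39% of all genes did. The annotation also places Timp4 inside the predicted gene Gm17482, on the opposite strand, and the small RNA Gm27265 inside Reck on the same strand; their levels were not analysed here.

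Of 23 listed Mmp genes, the proteases that Timps inhibit, 14 were tested, of which 3 fell, none rose and 11 did not pass, where 0.9% of all genes fell and 1.39% passed in either direction. The median log2 fold change was -0.07 against 0.01 over all genes. Whether the Mmp genes differed from the Timp genes in their response was not tested. The collagenase Mmp13 had 221 CPM in WT and 28 and 26.1 CPM in DF508 (adjusted p = 1.11e-05, edgeR quasi-likelihood test). The stromelysin Mmp3, which shares reads and is uncertain, had 237, 98.1 and 122 CPM (adjusted p = 0.00831). Mmp14, the membrane-bound collagenase that both Timp2 and Reck inhibit, had 636 CPM in WT and 396 and 394 CPM in DF508. It fell 1.66-fold (log2 fold change -0.73 ± 0.09 SE, adjusted p = 0.0111), with near equal values in both DF508 libraries, and it too shares reads. All 3 passed in DESeq2 and in limma-voom. With library totals, without a filter and on FPKM, where no gene passed, none of the 3 was called. Mmp2, the gelatinase activated through Mmp14 and Timp2, had 391, 426 and 392 CPM (adjusted p = 0.968). Mmp9, the other gelatinase and a Reck target, had 3.4 CPM in WT and 8.97 and 11.6 CPM in DF508 without passing (adjusted p = 0.127), alongside the macrophage marker sum of 93.6, 146 and 671 CPM. Mmp2 and Mmp9 were named after their values were seen, for their link to Reck.

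Set side by side per gene length, the 18 Mmp genes in the tables summed to 731 FPKM in WT and to 503 and 504 FPKM in DF508, against 1101, 1113 and 1151 FPKM for the Timp genes. The ratio of the Timp sum to the Mmp sum was 1.51 in WT and 2.21 and 2.28 in DF508. Without Mmp3, whose reads are shared, it was 1.83, 2.47 and 2.63. Mmp14, Mmp19, Mmp10, Mmp25 and Timp3 also share reads and were kept in, so ratios that hold them are uncertain as well. The ratio of Timp2 to Mmp14 was 2.07, 3.51 and 3.56, and that of Timp1 to Mmp13 was 5.24, 42.3 and 50. In each of these ratios both DF508 libraries were above WT. Mmp14 and Mmp13 are among the Mmp genes that fell, and the Mmp sum includes them. The direction of these ratios therefore follows from that fall and is no separate result. Mmp2, which did not pass, had 127, 138 and 127 FPKM in WT and DF508 replicates 1 and 2. The ratios are of transcripts and were not tested, and the Mmp sums differed more between WT and DF508 than the Timp sums.

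**Figure D4:**
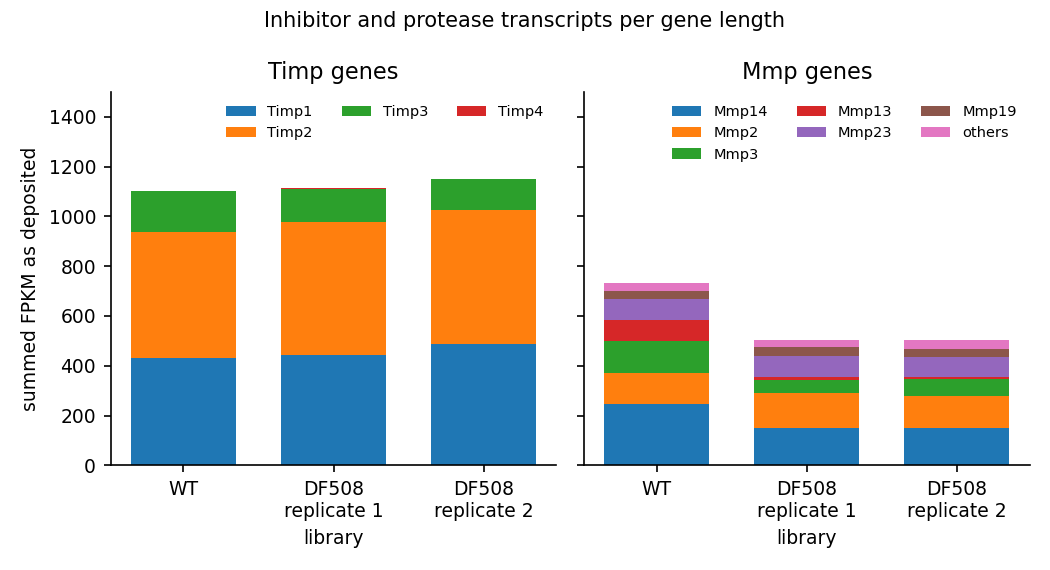
Summed FPKM as deposited (y axis, from 0) in the WT library and DF508 replicates 1 and 2 (x axis), stacked by gene for the 4 Timp genes (left) and the 18 Mmp genes (right, with the less abundant ones as others); there are no error bars since each bar is 1 library. The Timp bars stand at 1101, 1113 and 1151 FPKM and the Mmp bars at 731, 503 and 504 FPKM.

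Among 18 Adam and Adamts proteases, a group that includes further targets of Timp3, 17 were tested. Of these, 2 fell, none rose and 15 did not pass (median 0.10), where 0.9% of all genes fell. The aggrecanase Adamts5 had 612 CPM in WT and 376 and 264 CPM in DF508 (1.97-fold lower, adjusted p = 0.0339), and Adamts1 had 203, 139 and 108 CPM (1.68-fold lower, adjusted p = 0.045). Adamts5 was not called in DESeq2's Wald test (adjusted p = 0.419) or in glmTreat against a fold of 1.2 (0.0909). Adamts1 was not called with upper-quartile factors (adjusted p = 0.0515), with a mean of at least 50 counts (0.0535) or in glmTreat (0.156). Neither gene was called with library totals, without a filter or on FPKM, where no gene passed. Against the aggrecanases Adamts4 and Adamts5 together (79.1, 50.9 and 35.8 FPKM), Timp3 stood at a ratio of 2.04 in WT and 2.61 and 3.45 in DF508. Nearly all of this sum was Adamts5 (74.8, 45.9 and 32.3 FPKM). Adamts4 had 4.25, 5.02 and 3.46 FPKM (edgeR quasi-likelihood adjusted p = 0.973). Timp3 itself was lower in DF508 in these libraries, and the aggrecanase sum was lower by more. The direction of this ratio therefore follows from the Adamts5 fall and is no separate result. The sheddase Adam17 had 91.3, 84.3 and 88.6 CPM (adjusted p = 0.732), and was named after its values were seen, as a Timp3 target.

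Of 22 genes listed for a link to the regulation of Timp1, among them AP-1 subunits and the Il6 family receptors, all were tested. Of these, 5 fell, none rose and 17 did not pass (median -0.20), where 0.9% of all genes fell. The 5 that fell were AP-1 subunits. Fos had 1030 CPM in WT and 656 and 593 CPM in DF508, Fosb 1210, 723 and 600 CPM, Junb 517, 338 and 342 CPM and Jun 449, 237 and 164 CPM (adjusted p = 0.0112, 0.0112, 0.0191 and 0.0193). Jund, the fifth, was 1.65-fold lower (adjusted p = 0.0208). In DESeq2's Wald test the adjusted p of Jun was 0.213 and that of Jund 0.105, both short of the threshold. In glmTreat Junb had an adjusted p of 0.0761 and Jund of 0.0779. None of the 5 was called with library totals, without a filter or on FPKM, where no gene passed. The Timp1 promoter window shown above holds an AP-1 variant, and Timp1 had 380, 390 and 429 CPM in the same libraries. Whether AP-1 acted on Timp1 in these cells was not tested.

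Neither the genes that bind or clear Timps nor the partners of Reck held a member that passed, where 1.39% of all genes did. Of 10 surface and clearance genes 9 were tested (median -0.15). Cd63, a tetraspanin that binds Timp1, had 609, 435 and 463 FPKM (adjusted p = 0.0533), and Lrp1, the endocytic receptor that takes up Timp3 and Mmps, had 291, 244 and 239 FPKM (adjusted p = 0.0982). Both were below WT in each DF508 library. Of 9 genes of the Reck and Wnt7 receptor complex 7 were tested (median 0.05). The coreceptor Lrp6 had 31.5, 32.1 and 33.9 FPKM and Lrp5 had 20, 21.5 and 21.2 FPKM, while the ligand Wnt7a was not listed in any library and Wnt7b had 0.189 CPM in WT and 0 in DF508.

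Other inhibitors and activators of extracellular proteases gave 0 calls as well, where 1.39% of all genes passed. At that share short lists often hold no call, so the 0 is no result about these genes. Of 23 further protease inhibitors 18 were tested (median -0.05). Serpinf1, an anti-angiogenic serpin, had 2177, 2075 and 2196 FPKM (adjusted p = 0.79). Of 8 plasminogen and proprotein activators 7 were tested (median 0.06). The plasminogen activator Plat had 123, 102 and 84.1 FPKM (adjusted p = 0.176) and the proprotein convertase Pcsk6 35.8, 36.4 and 40.7 FPKM. Proteins that share the netrin-like fold of the Timp inhibitory domain gave 0 calls among 12 tested of 16 (median 0.04). The Wnt-binding Sfrp2 had 1390 FPKM in WT and 1778 and 2022 FPKM in DF508 (adjusted p = 0.0925), and Pcolce, the enhancer of procollagen cleavage, 983, 932 and 920 FPKM (adjusted p = 0.611). At an unadjusted p under 0.05 there were 4 of 9 surface and clearance genes, 1 of 7 Reck partners, 5 of 18 inhibitors, 1 of 7 activators and 3 of 12 netrin-like genes, against 11.9% of all genes.

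**Figure D5:**
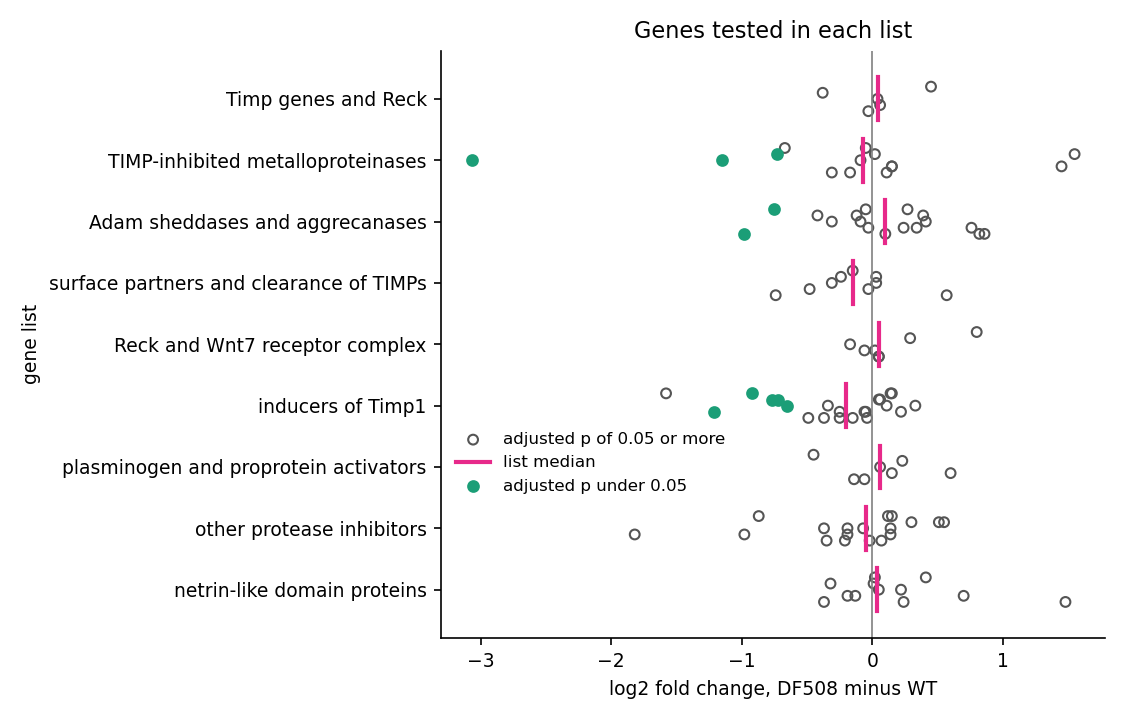
Log2 fold change of DF508 minus WT (x axis) of each gene tested in 9 lists (y axis); filled points passed an adjusted p of 0.05, open points did not, and the bar marks the list median. Filled points lie in the Mmp, Adam and inducer lists, all below 0, and the 5 points of the Timp genes and Reck are open.

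The genes whose profile over the 3 libraries was most like each abundant member were found by the Euclidean distance between centred log2 CPM values, among the 7284 genes whose mean reached 20 CPM. For Timp3 they were Asah1 (313, 257 and 239 CPM, distance 0.00264), the early-response factor Egr1 (1328, 1098 and 1020 CPM) and the retromer subunit Vps35 (196, 161 and 151 CPM). For Timp1 they were Trip10, 2610002M06Rik and Sucla2, for Timp2 they included Sec23ip and Psmd3, and for Reck Fbl, Tgs1 and Trnt1. With 3 libraries and 7284 genes close profiles are frequent, and the distances are a description.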

How the data were processed

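Poly(A) RNA of 3 libraries was sequenced. Per the submitters' processing notes, Bowtie and RSEM were used with mm9; their versions, the annotation release and the strand setting: not given in the sources used here. There is 1 table a library, with expected counts as deposited (RSEM's estimates, not normalized), FPKM as deposited by the authors and, per the file headers, gene lengths. A gene missing from a table was set to 0. Symbols came from a RefSeq table of GRCm38.p6 (16579 of 16621, 99.7%).

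Expected counts were rounded. After filterByExpr and TMM normalization, DF508 was compared with WT by edgeR's quasi-likelihood test, with genotype as the sole term, 1 residual and 7.7 prior degrees of freedom, and Benjamini-Hochberg adjustment over 12888 genes at 0.05. The SE is the log2 fold change over the square root of F. CPM given as levels are scaled to the library total; log2 CPM used a prior count of 2. A gene whose estimate was not whole within 0.005 shares reads and is called uncertain. The totals of 5298326, 5241826 and 5246886 counts limit precision for genes with few counts. The test was also run on simulated counts, drawn with the same scatter in WT as in DF508. That does not check how WT would vary between replicates.

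Named were the 5 members; in each list up to 4 genes past the threshold by adjusted p or, where fewer than 2 passed, the top 2 by mean FPKM; the synapsin genes; and the 3 genes most like each member whose mean reached 5 CPM. Of these, 2 genes are not reported here. The members and lists were chosen with earlier results of these data known. Alternatives were other scalings, filters, tests and pseudocounts, and each DF508 library left out. Software was DESeq2 1.42.0, limma 3.58.1 and edgeR 4.0.16 under R 4.3.3.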

Additional observations from a re-analysis of the deposited data

How the results depend on the processing

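No member passed under any of the 12 alternatives with a test. Timp4 had a value in 9 of them and no adjusted p in DESeq2's Wald test, which gave none for 9245 genes. The log2 fold change ranged over these from 0.06 to 0.11 for Timp1, 0.04 to 0.08 for Timp2, -0.38 to -0.33 for Timp3, 0.17 to 0.49 for Timp4 and -0.04 to 0.01 for Reck. Reck turned to 0.01 with library totals, on log2(FPKM + 1) with or without a filter, and on log2(FPKM + 0.1). Leaving out 1 DF508 library gives a value with no test, since no residual degree of freedom remains. It gave -0.01 to 0.13 for Timp1, 0.04 to 0.04 for Timp2, -0.43 to -0.33 for Timp3, -0.51 to 0.87 for Timp4 and -0.11 to 0.05 for Reck. The 179 genes called became 63 with DESeq2's Wald test (60 of them shared), 403 with edgeR's likelihood ratio test and 58 with edgeR's glmTreat against a fold of 1.2. They became 0 with library totals, without a filter and on log2(FPKM + 1) with or without a filter or log2(FPKM + 0.1), where an unadjusted p under 0.05 was reached by 1253, 1123, 1145, 1615 and 1159 genes; the cause was not tested. The share of higher calls was 35.2%, against 23.8% with DESeq2's Wald test and 45.2% with the likelihood ratio test. On TMM-normalized sizes 12 of 15 levels moved by less than their spread, and the 3 that moved more were those of Timp2 (1891, 1938 and 1951 CPM). No paired analysis was possible because WT has 1 library and no replicate number.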
